A study of Homo sapiens with 4 samples.

Results

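The transcripts described here were assembled from RNA sequencing reads of lung cancer cells, matched no annotated transcript, had 1 exon and lay on the strand opposite to an annotated exon (class code x of the assembly comparison). They were taken from the table of lncRNA transcripts by that class code and by an exon number of 1. In all, 3308 of the 54708 transcripts of the table met the rule, out of 3356 with the class code at any exon number. The rule used annotation and exon number and no measured level.

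Sequencing covered total RNA after removal of ribosomal RNA in A549 and HCC827, established lines of human lung adenocarcinoma, and in a resistant derivative of each. A549/DDP cells resist cisplatin, a platinum drug that crosslinks DNA, and HCC827/GR cells resist gefitinib, which inhibits the EGFR kinase. The resistant lines were raised by stepwise drug exposure and were kept off the drug before the experiment. For HCC827/GR, the sample labels name cisplatin as the drug and the study's methods name gefitinib, which is the name followed here. Each of the 4 lines was sequenced as 1 library, so no spread between replicates and no p-value can be given, and each resistant library differs from its parent in line history as well as in drug response. Ratios carry exact intervals at 95% that cover counting error only.

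Antisense transcripts are RNAs made from the strand opposite to a known gene. They arise where neighbouring genes point at each other and run into one another's tails, where a promoter also fires backwards, or from promoters inside a gene. Some are known to act on the gene they oppose, for example by holding its promoter silent or by pairing with its mRNA, and many have no known role.

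A locus is named here when it had 20 or more read pairs in 2 or more libraries, which 210 of the 3308 transcripts did. One read pair is 302 bases, 151 from each read, so that read pairs are the mean coverage of a transcript times its length divided by 302. Of the 210 loci, 8 overlapped the promoter window (250 bases before to 50 after the start) of a RefSeq gene on the other strand, against 60 of all 3308 transcripts. Gene starts outside the windows searched were not counted, and these counts were not adjusted for transcript length. At all 8 an antisense RNA overlapped the promoter window of the opposing gene, and at 5 it covered the start itself. The windows of 4 of the 8 opposed genes are shown as examples. Among those shown, the antisense RNA covered the start at GULP1, PSMB10 and COL10A1, and at GNAS it lay 111 bases upstream of the start used for the window. The GNAS antisense transcript was itself inside the RefSeq gene, with its midpoint at 0.669 of the gene's length. This start is therefore not the outer start of GNAS. The windows come from RefSeq on GRCh38.p14 and are written 5′ to 3′ on the strand of the gene. Capitals mark 3 motifs searched on both strands: TATAAA (the TATA box), CCAAT (the CCAAT box) and GGGCGG (the GC box). No match overlapped another, and 11.6%, 34.6% and 44.9% of 34943 promoter windows hold them.
GNAS promoter, chr20:58888163-58888462, plus strand: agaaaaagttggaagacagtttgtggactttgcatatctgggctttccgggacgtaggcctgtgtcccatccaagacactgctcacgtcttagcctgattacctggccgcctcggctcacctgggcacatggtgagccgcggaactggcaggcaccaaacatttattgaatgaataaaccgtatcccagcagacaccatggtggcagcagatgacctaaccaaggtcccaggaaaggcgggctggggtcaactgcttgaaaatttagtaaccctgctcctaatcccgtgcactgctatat
GULP1 promoter, chr2:188291624-188291923, plus strand: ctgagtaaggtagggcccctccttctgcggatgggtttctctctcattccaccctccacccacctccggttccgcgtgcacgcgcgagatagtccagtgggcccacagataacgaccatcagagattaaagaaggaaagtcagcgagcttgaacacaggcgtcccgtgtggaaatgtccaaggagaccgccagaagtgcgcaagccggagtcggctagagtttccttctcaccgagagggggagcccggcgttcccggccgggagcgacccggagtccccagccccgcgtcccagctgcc
PSMB10 promoter, chr16:67936801-67937100, minus strand: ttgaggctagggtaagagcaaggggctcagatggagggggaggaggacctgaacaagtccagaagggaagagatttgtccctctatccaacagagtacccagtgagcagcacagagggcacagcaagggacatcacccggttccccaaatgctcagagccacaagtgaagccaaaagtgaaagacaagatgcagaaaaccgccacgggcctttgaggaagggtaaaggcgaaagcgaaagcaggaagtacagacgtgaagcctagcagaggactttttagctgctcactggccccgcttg
COL10A1 promoter, chr6:116126083-116126382, minus strand: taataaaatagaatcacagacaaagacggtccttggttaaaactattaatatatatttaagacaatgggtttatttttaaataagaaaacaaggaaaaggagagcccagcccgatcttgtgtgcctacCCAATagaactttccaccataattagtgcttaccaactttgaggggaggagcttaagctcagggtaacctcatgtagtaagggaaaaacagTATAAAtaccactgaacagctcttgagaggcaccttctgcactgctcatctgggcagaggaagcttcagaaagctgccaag
The COL10A1 window holds 1 TATA box and 1 CCAAT box, and none of the 3 motifs was found in the other 3 windows shown. Each of the 4 windows not shown holds at least 1 motif, so that 5 of the 8 have one.

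At GNAS, the gene of the stimulatory G protein alpha subunit and a textbook imprinted locus, transcript MSTRG.59238.1 on the minus strand covered 140 of the 300 bases of the window. The A549 library had 0 read pairs of it and the A549/DDP library 6.50, while HCC827 had 163 and HCC827/GR 53.1. The HCC827 lines were thus high and the A549 lines low, and the ratio of HCC827/GR to HCC827 was 0.383 (0.276 to 0.525). This ratio, like every other given with an interval, is of read pairs rounded to whole numbers and scaled to aligned bases. At GULP1, an adaptor for the engulfment of dying cells, MSTRG.55124.1 covered all 300 bases, with 65.8, 43.0, 23.5 and 0 read pairs in the order parental and then resistant A549, parental and then resistant HCC827. That order of libraries is kept for every set of 4 values that follows. At PSMB10, an immunoproteasome subunit, MSTRG.37270.1 had 0, 43.8, 21.9 and 0 read pairs over the whole window. At COL10A1, the collagen of growth plate cartilage, MSTRG.84459.1 had 0, 26.0, 23.9 and 0 read pairs and ran along the strand of NT5DC1, the gene around COL10A1. The remaining 4 loci over a promoter window opposed ALOX12, DHRS3, IRAK1BP1 and LOC124904423.

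All 4 libraries were of similar depth, with 4.34, 4.62, 5.24 and 4.45 gigabases of aligned reads, but HCC827/GR stood apart from the others. It listed 432 of the antisense transcripts above 0, where the A549 library listed 1263, the A549/DDP library 1512 and the HCC827 library 1801. The transcripts it did list had a median of 124 read pairs, against 6.60, 7.50 and 18.6. Intronic and intergenic single-exon transcripts showed the same, with medians of 130 and 123 read pairs in HCC827/GR. Of the HCC827/GR transcripts above 0, 91.0% reached 20 read pairs, and in the other libraries 12.7%, 12.6% and 45.7% did. A listed 0 in HCC827/GR is therefore given only as a listed 0, and its part in each difference below was not tested. The table of linear transcripts held none of the 17 coding marker genes looked up, so the lines could be checked only through the circRNA table and only in small part. Of 10 epithelial markers 1 hosted a circRNA, KRT7, a keratin of glandular epithelium, with 1471, 1126, 239 and 1114 counts. Of 4 mesenchymal markers 2 did, fibronectin (FN1, with 171, 6, 6 and 0 counts) and the repressor ZEB1 (105, 104.5, 166 and 0), and of 3 blood markers 0 did.

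**Figure D1:**
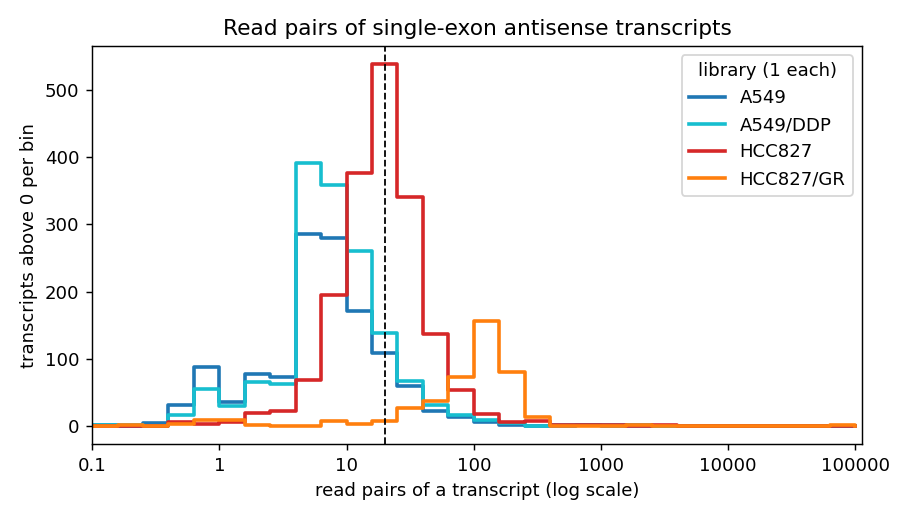
Number of antisense transcripts (vertical axis) by read pairs per transcript (horizontal axis, log scale) in each of the 4 libraries, with a dashed line at 20 read pairs. The HCC827/GR curve sits to the right of the others, at a median of 124 read pairs, and the 2 A549 lines peak below 10.

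The antisense transcripts took 0.117%, 0.137%, 0.290% and 1.01% of the aligned bases, or 16792, 21003, 50393 and 149138 read pairs. Of the HCC827/GR read pairs, 66.0% came from 1 locus on chromosome 1, MSTRG.3156.1. Without the highest transcript of each library, the sums were 15112, 19487, 47690.3 and 50656, so that the ratio of HCC827/GR to HCC827 in read pairs went from 2.96 to 1.06 when MSTRG.3156.1 was left out.

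The transcripts were short. Their median length was 281 bases (quartiles 226 and 456, range 200 to 6720), beside 266 for intronic and 263 for intergenic single-exon transcripts and 742 for annotated lncRNAs. A length of 302 bases or less, no longer than the bases of 1 read pair, was found for 56.5% of them. Length went with sharing, as the median was 248 bases for transcripts above 0 in 1 library, 372 in 2, 639 in 3 and 1119.5 in all 4. Plus and minus strands held 1638 and 1670. The coding potential scores were below -1 (CPC) and below 0 (CNCI) for every one of them.

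Most were listed in a single library. Of the 3308, 2027 were above 0 in 1 library, 918 in 2, 307 in 3 and 56 in 4, which put 38.7% in 2 or more, beside 34.8% of intronic, 31.1% of intergenic and 59.9% of annotated transcripts. At 20 read pairs or more, 1059 transcripts were found in 1 library, 142 in 2, 47 in 3 and 21 in 4. The 210 loci so named were 6.35% of the antisense transcripts, beside 4.98% of the intronic, 4.63% of the intergenic and 14.1% of the annotated ones by the same rule. Without HCC827/GR, 140 loci had 20 read pairs in 2 libraries. The 10 loci just inside the limit had 20 to 20.7 read pairs in their second library and the 10 just outside had 19.3 to 19.98.

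Sharing at 20 read pairs followed the pairs of lines only in part. HCC827 and its derivative together gave 58 loci and the A549 lines together 15, while HCC827 gave 33 with A549/DDP and 24 with A549. A further 21 loci were in all libraries but HCC827/GR, 13 in all but A549, 8 in all but A549/DDP and 5 in all but HCC827. A549/DDP with HCC827/GR gave 7 loci and A549 with HCC827/GR 5. The lists were of unequal size, with 161, 191, 823 and 393 loci. As shares of each list, the 62 loci of A549 and A549/DDP together were 38.5% of the A549 loci and 32.5% of the A549/DDP loci. The 100 of HCC827 and HCC827/GR were 12.2% and 25.4%. Across the lines, the 74 of A549 and HCC827 were 46.0% and 8.99%, and the 88 of A549/DDP and HCC827 were 46.1% and 10.7%. HCC827/GR shared 24.2% of the A549 loci and 24.1% of the A549/DDP loci. The same sharing over all transcripts of the table was not counted.

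The file attaches a gene name to 3124 of the 3308 transcripts, 1725 names in all, but the name was not always that of the gene opposed. On the strands known from RefSeq and from annotated transcripts, the named gene lay on the opposite strand for 1324 transcripts and on the same strand for 706, and for 1094 no strand relation to it was found. An opposed gene could be found for 1438 transcripts, namely a coding gene for 914, another RefSeq gene for 322 and an annotated lncRNA of the table for 202. Strand was known for 28211 of 59679 RefSeq genes, so that an opposed gene not found is no evidence of its absence. Among transcripts that overlapped genes of 1 direction only, 34.7% ran opposite to the gene, against 7.61% of intronic and 14.8% of intergenic single-exon transcripts. Another 65.3% ran with it. The sources used here do not state whether the libraries were stranded.

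Where a coding gene was opposed, the antisense transcript lay most often at its tail. The last 10% of the gene held 361 of 912 transcripts (39.6%, exact interval 36.4% to 42.8%), and 39 of 72 named loci (54.2%). That interval is a binomial one that takes transcripts as independent. Those at the same gene are not, so it may be too narrow. Intronic and intergenic transcripts opposite to a coding gene had 27.5% and 26.3% there. The first 10% held 6.25% of the antisense transcripts. Transcripts that reach past an end of the gene were placed at that end.

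**Figure D2:**
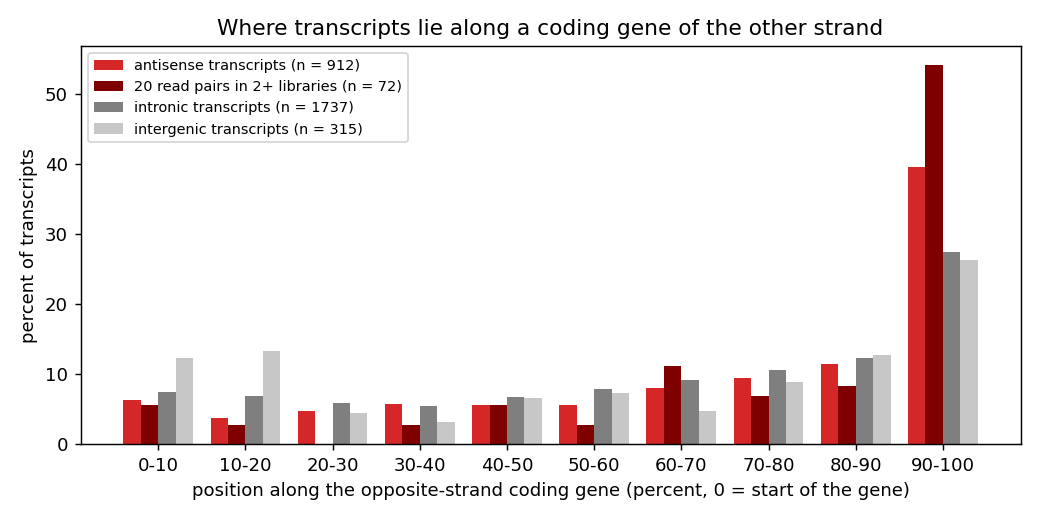
Percent of transcripts (vertical axis) by position of their midpoint along the coding gene of the other strand (horizontal axis, in steps of 10% from the start to the end of the gene). The last step holds 39.6% of the antisense transcripts and 54.2% of the loci with 20 read pairs in 2 or more libraries, against 27.5% of the intronic and 26.3% of the intergenic ones.

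Loci that lay just downstream of a gene on their own strand were counted whether or not they opposed a tail. How many did both, as where 2 genes converge, was not counted. Of the named loci, 50 of 210 (23.8%) overlapped no gene of their strand and began within 10 kb after the end of a same-strand coding gene, at a median distance of 1564.5 bases. The share was 13.6% for all antisense transcripts, 5.39% for intronic and 16.7% for intergenic ones. Among transcripts that overlapped no gene of their strand, the shares were 30.9%, 18.9% and 22.7%, and 49.5% for the named loci.

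The 21 loci with 20 read pairs in all 4 libraries are the best measured. Highest was MSTRG.46132.1 (chr19:14622240-14623277, plus strand) at ITGB1P1, a pseudogene of the integrin beta 1 gene, opposite to ADGRE3. It had 1679.5, 1516, 936 and 1963 read pairs, with ratios of 0.847 (0.790 to 0.909) in A549/DDP and 2.47 (2.29 to 2.67) in HCC827/GR. HCC827 was the lowest of the 4 and the A549 lines were close to each other. The gene SNORA104, whose strand was not known here, also overlapped the transcript. Since a pseudogene resembles its parent gene, reads of ITGB1 could have been placed there and the values are uncertain. The source of the reads was not tested. The next, MSTRG.93726.1 at RP11-598P20.3 on chromosome 8, was 5991 bases long, with 726, 895, 1177 and 139 read pairs. There HCC827/GR was the low library, at 0.139 times HCC827 (0.116 to 0.166), and the A549 lines were 1.16-fold apart (1.05 to 1.28).

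**Figure D3:**
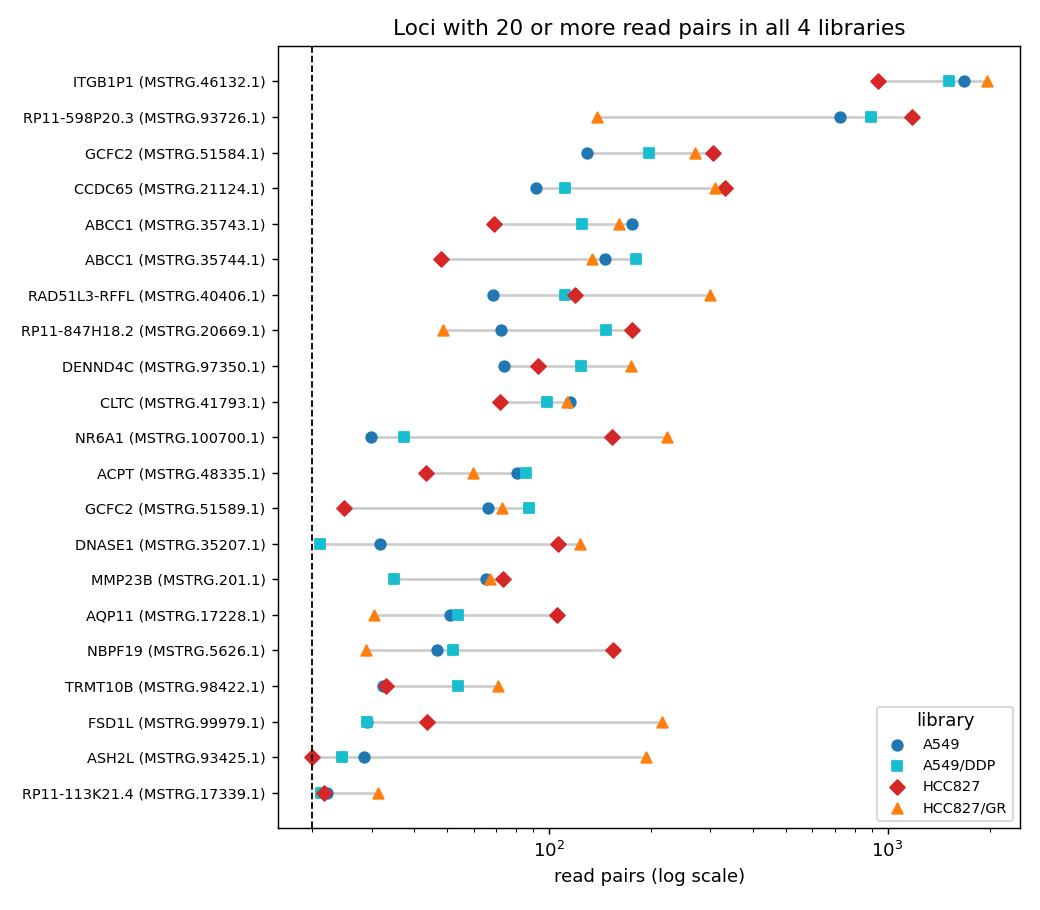
Read pairs (horizontal axis, log scale) of the 21 loci with 20 or more read pairs in each of the 4 libraries, 1 row per locus with its gene name, and a dashed line at 20. ITGB1P1 is highest with 936 to 1963 read pairs, and the triangle of HCC827/GR is far to the right at ASH2L (194) and FSD1L (217) and far to the left at RP11-598P20.3 (139).

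Several of the 21 sat between converging genes. MSTRG.41793.1 (chr17:59693407-59696510, minus strand) opposed the tail of CLTC, the clathrin heavy chain, and began 798 bases after the end of PTRH2, a mitochondrial peptidyl-tRNA hydrolase. It had 116, 99.1, 72.0 and 114 read pairs, and the interval of its ratio in the A549 pair reached across 1 (0.607 to 1.06). MSTRG.97350.1 (chr9:19372901-19374889, minus strand) crossed the end of DENND4C and began 826 bases after RPS6, a ribosomal protein of the small subunit, with 73.7, 125, 93.0 and 176 read pairs. Both resistant libraries were above their parents, by 1.59-fold (1.18 to 2.14) and 2.22-fold (1.71 to 2.88). MSTRG.98422.1 opposed TRMT10B, a tRNA methyltransferase, 6130 bases after the end of EXOSC3, a subunit of the RNA exosome, and had 32.5, 53.9, 33.1 and 70.9 read pairs. Its ratios were 1.54 (0.979 to 2.45) and 2.54 (1.66 to 3.96). At the tail of ACP4 (named ACPT in the file), an acid phosphatase, MSTRG.48335.1 had 80.9, 85.7, 43.5 and 59.9 read pairs.

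GCFC2 was 1 of 3 gene names with 3 or more named loci. It faces MRPL19, a mitochondrial ribosomal protein, and all 3 loci ran with MRPL19. MSTRG.51584.1 (chr2:75658342-75660119) overlapped MRPL19 itself and had 129.7, 198, 306 and 271 read pairs, with ratios of 1.43 (1.14 to 1.80) and 1.04 (0.883 to 1.23). MSTRG.51588.1 began 731 bases after the end of MRPL19, inside the tail of GCFC2, and was listed at 0 in both A549 lines against 112 read pairs in HCC827 and 177 in HCC827/GR. MSTRG.51589.1, 4884 bases after that end, was again in all 4 libraries, with 66.1, 87.2, 24.9 and 73.0. The 3 loci therefore did not share a pattern over the libraries. They are separate assemblies, and whether any of them belong to 1 transcript was not tested.

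ABCC1 encodes the multidrug resistance protein MRP1, an ABC pump that exports drug conjugates, and it carried a pair of the longest loci. Both MSTRG.35743.1 (chr16:15953234-15958149, 4916 bases) and MSTRG.35744.1 (chr16:15958468-15965187, 6720 bases) were on the plus strand, as ABCC1 is, so that they were inside ABCC1 and not opposite to it on the strands known here. They had 176, 125, 68.9 and 161 read pairs, and 146, 181, 48.0 and 134. HCC827 was the lowest library for both, and HCC827/GR stood above it 2.75-fold (2.06 to 3.70) and 3.29-fold (2.35 to 4.68). In the A549 pair the ratios were 0.667 (0.526 to 0.844) and 1.16 (0.931 to 1.46). The circRNAs of ABCC1 had another order, with 9525, 5634, 2665 and 1666 estimated counts over 8 circRNAs.

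Of the other loci in all 4 libraries, 3 were far higher in HCC827/GR than in HCC827, with the whole interval above 2-fold. At ASH2L, a subunit of histone H3 methyltransferase complexes, MSTRG.93425.1 had 28.6, 24.5, 20 and 194 read pairs, a ratio of 11.4 (7.20 to 19.1). It opposed ASH2L with its midpoint at or before the gene's start, and overlapped none of the promoter windows searched. At FSD1L, MSTRG.99979.1 had 29.2, 29.0, 43.8 and 217, a ratio of 5.81 (4.19 to 8.23), and ran with FSD1L. At RFFL, a ubiquitin ligase, MSTRG.40406.1 had 68.6, 112, 119.5 and 299.5, a ratio of 2.94 (2.37 to 3.66). At 2 of the 21 loci the intervals reached across 1 in both pairs, MSTRG.21124.1 at CCDC65 and FKBP11 (91.9, 112, 330.4 and 309.9) and MSTRG.17339.1 opposite LINC02951 (22.2, 21.3, 21.7 and 31.4). For CCDC65 the HCC827 lines were both higher than the A549 lines, and for LINC02951 the 4 libraries were close. MSTRG.100700.1 ran with the host gene of miR-181a, MIR181A2HG, opposite to NR6A1, a nuclear receptor, and had 29.9, 37.5, 153 and 224 read pairs. Lower in HCC827/GR were MSTRG.5626.1 at NBPF19 (46.7, 52.1, 155 and 28.9), MSTRG.17228.1 at AQP11 (51.0, 54.0, 106 and 30.5) and MSTRG.20669.1 at RP11-847H18.2 (72.1, 148, 176 and 48.8). NBPF19 and NOTCH2NLC, the gene that MSTRG.5626.1 ran with, belong to recently duplicated families, so that its reads may be shared with copies. The remaining 2, at DNASE1 and MMP23B, had 21.2 to 124 and 35.0 to 73.5 read pairs.

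The most abundant transcript of the antisense class in any library was MSTRG.3156.1 (chr1:68386329-68392036, plus strand, 5708 bases). It carries no gene name in the file and overlapped no RefSeq gene or annotated transcript of the table. The annotated exon that its class code sets it against was therefore not found here. Its place among the antisense transcripts rests on that code alone. It had 6.97, 4.87, 2703 and 98481 read pairs. The A549 lines were thus near the floor and the HCC827 lines high, with FPKM of 0.0849, 0.0557, 27.3 and 1172 and a ratio of 42.9 (41.3 to 44.6) between HCC827/GR and HCC827. It alone took 0.669% of the aligned bases of HCC827/GR. Within 100 kb lay 14 other transcripts of the table, 10 of them intergenic. HCC827/GR had 12 of the 14 above 0 and HCC827 7, the A549/DDP library 2 and the A549 library 1, and the highest of them in HCC827/GR had 585 read pairs. The only annotated one, RP4-694A7.2 next to DEPDC1, went the other way, with 35.2, 96.1, 88.2 and 14.3 read pairs, and the antisense transcript opposite to it, MSTRG.3162.1, had 0, 0, 59.5 and 103.

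The comparison of each resistant line with its parent took transcripts at 0.1 FPKM or more in 1 of the 2 libraries and called a ratio of 2 or more, or 0.5 or less, after adding 0.1 FPKM. For A549/DDP against A549, 2141 of the 3308 antisense transcripts could be compared, 1081 were higher (50.5%) and 801 lower (37.4%). Among all 34809 transcripts compared, 45.7% were higher and 37.2% lower. For HCC827/GR against HCC827, 349 of 2035 were higher (17.1%) and 1640 lower (80.6%), beside 18.4% and 78.4% over the table. These shares lay near those of the table in both pairs. Most calls came from listed zeros, since 82.5% of the higher and 79.2% of the lower calls in the A549 pair, and 69.3% and 97.9% in the HCC827 pair, had 0 in the lower library. Among transcripts above 0 in both libraries, 189 were higher and 167 lower of 615 in A549/DDP, and 107 were higher and 34 lower in HCC827/GR of 187. Over the table under the same limit, 26.9% were higher and 22.8% lower in A549/DDP, and 53.6% and 16.7% in HCC827/GR, so that the balance of the HCC827 calls turned there too. Annotated lncRNAs at 1 FPKM or more in both HCC827 libraries had a median ratio of 1.38 (0.46 on the log2 scale), and the A549 pair one of 0.998.

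With 20 read pairs in both libraries of a pair, the A549 lines were close. Of 62 such loci, 2 were called higher, 4 lower and 56 neither, with a median log2 ratio of 0.02. Of the 1674 transcripts of the table under that limit, 7.71% were higher and 9.56% lower, with a median of -0.02. In the HCC827 pair 50 of 100 were higher, 13 lower and 37 neither, with a median of 0.97. Of the 1919 transcripts of the table under that limit, 42.8% were higher and 10.1% lower, with a median of 0.74, so that the table too had more higher than lower calls.

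**Figure D4:**
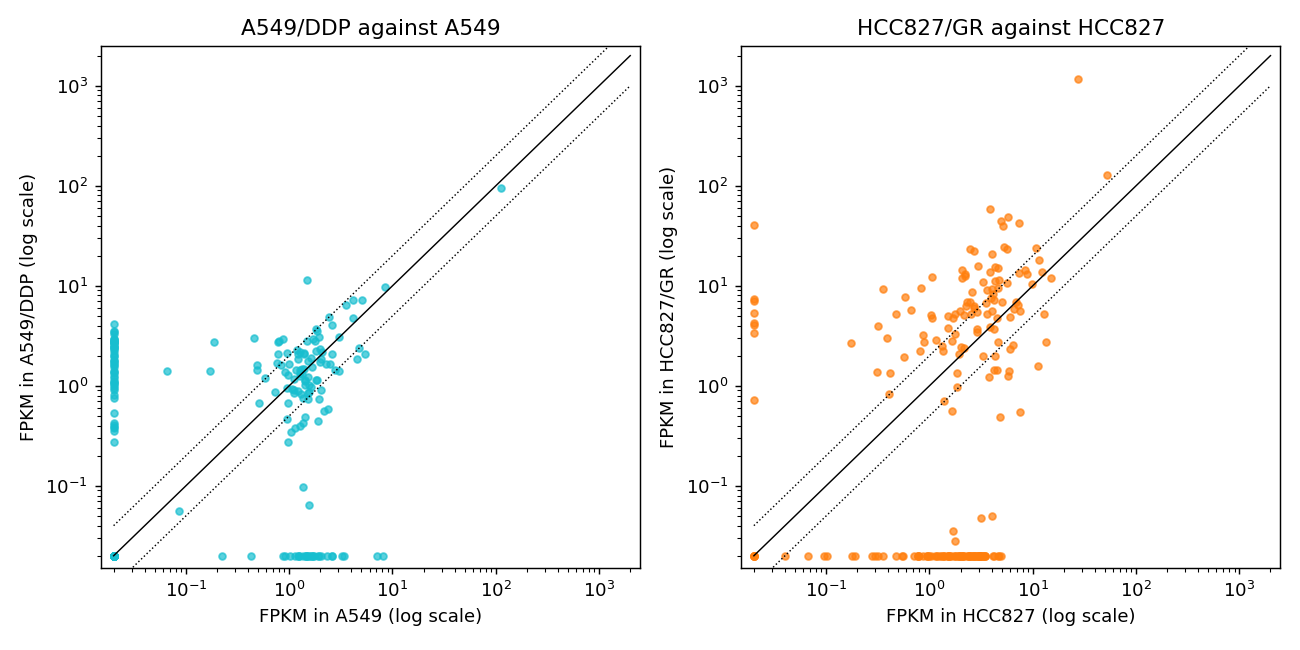
FPKM of the 210 named loci in the resistant line (vertical axis, log scale) against the parent (horizontal axis, log scale), A549 pair on the left and HCC827 pair on the right, with lines at equal levels and at 2-fold, and loci listed at 0 drawn at the edge at 0.02. In the A549 pair the loci with values in both libraries lie near the line of equal levels, and in the HCC827 pair 87 loci lie on the bottom edge.

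The largest rise in A549/DDP among loci with 20 read pairs in both A549 lines was MSTRG.73728.1 (chr4:177364954-177367396, plus strand), without a name in the file and on the strand of NEIL3, a DNA glycosylase that also unhooks DNA crosslinks. It had 28.1, 106, 11.9 and 0 read pairs, a ratio of 3.56 (2.33 to 5.60). The circRNAs of NEIL3 had 442, 1159, 246 and 306 counts and were thus also highest in A549/DDP. MSTRG.54554.1 on the strand of OLA1, an ATPase of the Obg family, had 22.8, 53.3, 87.8 and 0 read pairs (ratio 2.16, 1.30 to 3.70), and the circRNA of OLA1 had 528, 1182, 924 and 1663 counts. MSTRG.56006.1 near XRCC5, the Ku80 subunit of end joining, had 35.3, 75, 18.0 and 0 read pairs (ratio 2.01, 1.33 to 3.10). That ratio is of rounded read pairs, whereas calls use FPKM. After adding 0.1 FPKM the log2 ratio of MSTRG.56006.1 was 0.97, under the call. CCDC38 (ratio 1.96, 1.18 to 3.33) and RP11-847H18.2 (1.93, 1.45 to 2.60) followed.

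The largest falls in A549/DDP under the same limit of 20 read pairs in both A549 lines follow. MSTRG.79217.1 began 1542 bases after GM2A, the ganglioside activator of the lysosome, and had 57.6, 23.8, 29.4 and 0 read pairs, a ratio of 0.389 (0.231 to 0.635). MSTRG.65966.1 opposed ST3GAL6, a sialyltransferase, 1587 bases after DCBLD2, with 79.8, 35.2, 0 and 74.0 (ratio 0.411, 0.268 to 0.618). MSTRG.39852.1 opposed TNFAIP1 1361 bases after POLDIP2 (56.7, 27.1, 6 and 0, ratio 0.445, 0.270 to 0.715), and MSTRG.48226.1 near CD37, within SLC6A16 of its own strand, began 469 bases after TEAD2 (67.2, 32.6, 20.5 and 0, ratio 0.463, 0.295 to 0.712). At MMP23B, MSTRG.201.1 had a ratio of 0.506 (0.325 to 0.774), just short of the call.

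Loci present in one A549 line and listed at 0 in the other were led by MSTRG.89972.1 (chr7:93878635-93885243, minus strand, 6609 bases). It bears the name GNGT1 and began 153 bases after the end of TFPI2, a secreted protease inhibitor on the same strand. It had 774, 0, 34.5 and 0 read pairs, so that both parents had it and both resistant libraries were at 0. PDE10A, a phosphodiesterase of cyclic nucleotides, was the next gene name with 3 named loci, all on its own strand. MSTRG.86652.1 had 182, 0, 321 and 0 read pairs and repeated that pattern, whereas its neighbours had 39.8, 25.6, 0 and 85.3 (MSTRG.86651.1) and 0, 39.8, 121 and 148 (MSTRG.86650.1). MSTRG.33321.1 within SMAD3, a transducer of TGF-beta signals, had 62.6, 0, 63.8 and 0. Of all 210 named loci, 82, 63, 13 and 87 were at 0, or 39.0%, 30.0%, 6.19% and 41.4%. By the same rule over the table, 24.9%, 18.8%, 9.83% and 39.0% of 4029 transcripts were at 0.

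In the other direction, MSTRG.68856.1 (chr3:180611046-180616387, plus strand, 5342 bases) had 0, 229.7, 269 and 293 read pairs. It ran over the end of CCDC39, a ciliary protein, on the strand of TTC14. MSTRG.12860.1 (chr10:95869498-95874803, minus strand), opposite the tail of ENTPD1, the ectonucleotidase CD39, and with ENTPD1-AS1, had 0, 173, 354 and 302, so that A549 was the single library without it. MSTRG.41403.1 opposite SNF8, an ESCRT subunit, began 667 bases after UBE2Z and had 0, 108, 90.8 and 0. MSTRG.87534.1 within SCRN1 had 0, 90.9, 41.4 and 175. Around BCAN, a brain proteoglycan, MSTRG.6149.1 had 0, 87.7, 26.4 and 45.3, and MSTRG.6152.1, which crosses its end, had 70.1, 0, 0 and 30.1.

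In the HCC827 pair, the rises and falls described are the largest among loci with 20 read pairs in both HCC827 libraries. After MSTRG.3156.1 and beside ASH2L, the rises were on transcripts of 1270 bases or less. MSTRG.94442.1 near PI15 (388 bases) had 0, 0, 25.8 and 334 read pairs, a ratio of 15.1 (10.2 to 23.5). MSTRG.95065.1 at RP11-37B2.1 had 31.0, 0, 23.3 and 228 (ratio 11.7, 7.60 to 18.8), and MSTRG.80845.1 on the strand of NEDD9, an adhesion scaffold, had 0, 0, 22.3 and 177 (ratio 9.48, 6.07 to 15.5). The largest falls were MSTRG.74108.1 at RP11-259O2.1 (0, 0, 366 and 22.4, ratio 0.0708, 0.0438 to 0.109), RP11-598P20.3, MSTRG.102878.1 on the strand of RBM3, a cold-shock RNA-binding protein (0, 0, 168 and 28.7, ratio 0.203, 0.132 to 0.303), NBPF19, and MSTRG.103904.1, which crosses the end of the NADPH oxidase gene NOX1 834 bases after CSTF2 (0, 58.9, 112 and 23.0, ratio 0.242, 0.147 to 0.382). At 0 in HCC827 and highest in HCC827/GR were MSTRG.57750.1 at OVOL2 (35.3, 0, 0 and 207), MSTRG.73445.1 opposite the tail of the ubiquitin ligase gene MARCHF1 (56.0, 67.5, 0 and 193), AC090154.1 and MSTRG.25608.1 within DLEU2 (0, 47.3, 0 and 101). MSTRG.50750.1, at the tail of PUS10 downstream of REL, an NF-kappaB subunit, had 109, 64.3 and 131 read pairs and was at 0 in HCC827/GR, as was MSTRG.59767.1 at AP001347.6 (30.0, 24.1, 97.7 and 0).

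Where the opposed gene was itself an annotated lncRNA of the table, both strands could be compared on the same per-length scale. This held for 27 named loci in 28 pairings. The antisense FPKM was above that of the lncRNA in 11, 16, 20 and 13 of the 28 and below it in 15, 11, 8 and 2. The antisense loci were chosen for 20 or more read pairs in 2 or more libraries, and the lncRNAs had no such minimum. These counts therefore favour the antisense side and do not show which strand is higher in general. Both strands were above 0 in 17, 16, 21 and 5. At RP11-847H18.2, the lncRNA had 1.0, 1.55, 0.749 and 0 FPKM and the antisense MSTRG.20669.1 had 1.85, 3.56, 3.75 and 1.22. At AC000123.4, MSTRG.90960.1 had 0, 1.97, 4.06 and 0.0499 FPKM against 0.121, 0.127, 2.93 and 0 for the lncRNA, so that both were highest in HCC827. At AC008937.2, on the strand of MAP3K1, the values were 0.513, 0.680, 2.32 and 6.82 against 1.60, 0.683, 1.62 and 5.93. At DGUOK-AS1, MSTRG.51380.1 had 0, 0, 12.9 and 5.17 FPKM and the lncRNA 1.90, 2.98, 3.40 and 0, and here the A549 lines had the lncRNA alone. Levels of the coding genes opposed were not analysed here, since the table held no coding transcripts.

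Antisense transcripts also came in runs under 1 gene name, and some of these runs differed between the lines. The runs described were chosen after their values were seen. Of the 1725 names, 1200 had a single transcript, 261 had 3 or more and 25 had 10 or more. PCDH9, a protocadherin of cell adhesion, had 62, all on the minus strand over 795 kb, and they ran with PCDH9. The A549 library had 25 of the 62 above 0 and A549/DDP 55, against 2 for HCC827 and 0 for HCC827/GR, and they summed to 203, 809.8, 10.7 and 0 read pairs. The highest single transcript had 18.7, 49.0, 7.75 and 0, and 9 reached 20 read pairs in A549/DDP but in no other library, so that none became a named locus. BASP1, a membrane protein of growth cones, had 31 over 71.6 kb, of which 7, 2, 31 and 2 were above 0 (28.6, 3.78, 876 and 187 read pairs). RP4-678D15.1, with 13 transcripts on the strand of TSHZ2, was above 0 in HCC827 alone (239 read pairs), and RP11-223C24.1, with 16 on the strand of INPP4B, had 258, 18.0, 0 and 0. MECOM, the locus of the EVI1 transcription factor, had 12 on its own strand with 0, 5.83, 282 and 153. RORA had 13 with 21.4, 80.2, 103 and 0. Other runs were less bound to 1 line. PGM5P2 had 15, of which 11, 10, 8 and 0 were above 0 (151, 113, 180 and 0 read pairs). DLEU2 had 15, of which 10, 11, 6 and 1 were above 0 (120, 224, 104 and 101 read pairs). Transcripts under 1 name lie near each other, mostly on 1 strand, and are not independent of one another.

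**Figure D5:**
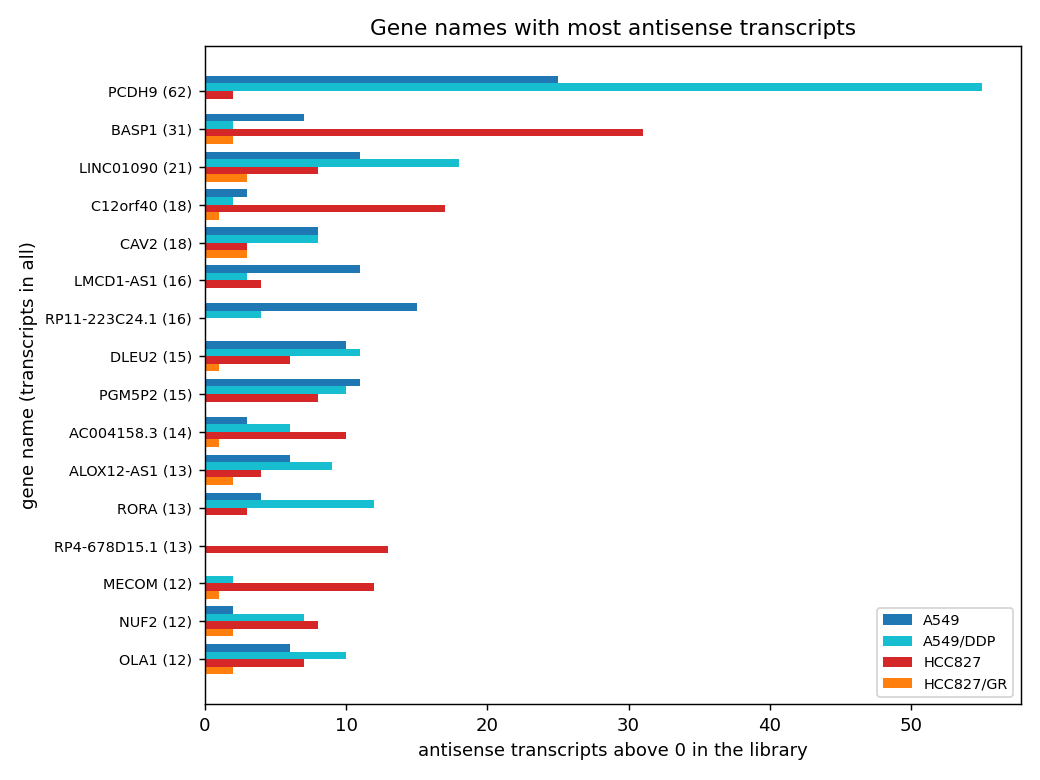
Number of antisense transcripts above 0 in each of the 4 libraries (horizontal axis) for the 16 gene names with most of them, with the total in brackets. PCDH9 has 25 and 55 in the A549 lines and 2 and 0 in the HCC827 lines, and BASP1 has all 31 in HCC827.

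LINC01090 was the third name with 3 or more named loci, 4 of its 21 transcripts, and 20 of the 21 ran on the plus strand with GULP1. Each of the 4 had its own pattern. MSTRG.55127.1 had 0, 45.8, 44.9 and 0 read pairs, MSTRG.55130.1 had 55.6, 39.0, 7.49 and 98.0, MSTRG.55132.1 had 38.1, 0, 21.2 and 156, and MSTRG.55136.1 had 26.4, 27.9, 11.8 and 0. Between the first and the second of these lies MSTRG.55128.1, on the plus strand over the hairpin of MIR561. It was chosen after its values were seen, with 0, 0, 0 and 137 read pairs, and the mature miRNAs of the hairpin are shown because the transcript ran in the direction of the hairpin. Capitals mark the seed, bases 2 to 8.
hsa-miR-561-5p (chr2:188297517-188297538, plus strand, GRCh38.p14): aUCAAGGAucuuaaacuuugcc
hsa-miR-561-3p (chr2:188297552-188297573, plus strand, GRCh38.p14): cAAAGUUUaagauccuugaagu
Of 1562 RefSeq hairpins, 2 overlapped an antisense transcript, and the other, MIR5695, ran against its transcript, which had 9 read pairs in A549 and 0 elsewhere.

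Gene lists on drug response, growth signalling, metabolism and housekeeping, 325 genes in 14 lists, held 50 of the 3308 transcripts at 29 genes, and 5 of the 210 named loci. NRF2 targets and detoxification genes had most, with 21 transcripts at 5 of 24 genes, of which 4 were named loci. These were the pair at ABCC1 and a pair at TXNRD1, the cytosolic thioredoxin reductase. At TXNRD1, all 9 transcripts opposed the gene. MSTRG.23237.1 had 0, 0, 24.7 and 40.4 read pairs and MSTRG.23247.1 had 0, 0, 55.7 and 115, so that both were in the HCC827 lines alone, with ratios of 1.89 (1.12 to 3.24) and 2.42 (1.74 to 3.39). The circRNAs of TXNRD1 were abundant in every line, with 13690.4, 26824, 10506 and 14597 counts. AKR1C1, AKR1C2 and AKR1C3, aldo-keto reductases of steroids and carbonyls, had 10 transcripts, all but 1 at 18.2 read pairs or less. The exception, MSTRG.9734.1 (chr10:4974342-4975972, minus strand), opposed AKR1C1 and had 0, 427, 0 and 0 read pairs, and it was chosen after its values were seen.

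Outside that list, the fifth named locus was MSTRG.96678.1 near RPL8, a ribosomal protein of the large subunit, with 0, 48.2, 49.6 and 0 read pairs. Among receptor tyrosine kinases and signalling genes, EGFR had 1 transcript (15 read pairs, HCC827 only) and PIK3CA had 1 (9.08 in A549 only). LDHA, the lactate dehydrogenase of glycolysis, was the only gene of the study's network with an antisense transcript, at 21.8 read pairs in HCC827 only. No list had a transcript at 20 read pairs in all 4 libraries except that of NRF2 targets, at ABCC1.

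Of the 230 genes at or around the named loci, 32 hosted a circRNA, including SMAD3 (916, 1315, 309 and 322 counts), ASH2L (421, 361, 682 and 414) and CLTC (1252, 1451, 1432 and 581). High in a single library and chosen after their values were seen were MSTRG.68149.1 opposite GFM1, a mitochondrial elongation factor (125 read pairs in A549 and 0 elsewhere), and MSTRG.3238.1, 209 bases after CTH, the cystathionine gamma-lyase (13.8, 11.5, 477 and 0).

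The other named loci are given by their libraries. The 58 that reached this level in HCC827 and HCC827/GR only were the shortest of the larger groups, with a median of 648.5 bases. They included loci opposite RASSF3, MKLN1, EIF2B2, SLC22A23, SLC6A14 and TXLNG and loci on the strand of DANCR, SEMA5A, ZFHX3, SLC38A9 and ICE1. The 33 of A549/DDP and HCC827 had a median of 1147 bases, and 13 of them were found opposite a coding gene. Among these genes were ABI2, CCNC, DNAH11, KLHDC2, MCFD2, NUDCD2, PSMD6 and RGS17. Of the 24 of A549 and HCC827 (1406 bases), 10 were, among them loci at CRKL, GPN1, MEGF11, SIK2, SLC10A1, TAF9B and ZNF513. Of the 21 of all libraries but HCC827/GR (1727 bases), 10 were, among them loci at DIS3L, FAM184B, GAS6, LNX1, LOXL4 and MZF1. Of the 15 of the A549 lines (1749 bases), 3 were, at HADHA, NOSTRIN and TNFAIP1. In each of these groups the lowest library counted had a median of 24.1 to 36.3 read pairs.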

How the data were processed

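Single-exon antisense transcripts were analysed in 4 libraries, 1 per line. The authors trimmed reads with Cutadapt, aligned them with Bowtie 2 and TopHat2 (TopHat in the submitters' processing notes), assembled them with StringTie and estimated levels with StringTie and Ballgown. The sources used here give no version, strandedness or genome build. The deposited lncRNA table holds the authors' FPKM and mean coverage of each transcript and their CPC and CNCI scores. The methods say that transcripts with a CPC score under -1 and a CNCI score under 0 were removed, whereas the deposited unannotated rows all had such scores. The deposited circRNA table holds the authors' estimated counts, used as sums per host gene.

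Coverage divided by FPKM gave the aligned bases of each library. Read pairs are coverage times length divided by 302, the number of bases that occurred most often on single-exon rows, and a tolerance of 0.001 read pairs allowed for rounding of the stored coverage. Ratios given with an interval are of rounded read pairs scaled to aligned bases, and the intervals are exact conditional Poisson ones. Calls used a pseudocount of 0.1 FPKM, a filter of 0.1 FPKM and a 2-fold threshold, and were checked on simulated data. No test was run, because each condition had 1 library.

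RefSeq tables on GRCh38.p14 gave gene ends, strands, promoters and miRNAs. Of 944 annotated genes, 91.8% began within 1 kb of the RefSeq start and 99.6% lay on the same strand, so the files' coordinates were read as that build. Strands came from promoters, circRNA hosts and annotated transcripts.

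Described in detail are loci with 20 read pairs in all 4 libraries, the 10 highest by their second library, the 5 largest rises and falls of each pair and the 5 with most read pairs that were 0 in the other library, the 5 longest, gene names with 3 or more loci, and loci of listed genes. The members, lists and rules were chosen with earlier results of these data known. The alternatives were read-pair minimums of 10 and 50, 300 bases per pair, leaving out HCC827/GR, other pseudocounts and filters, rescaling, and RefSeq partners. The work used scipy 1.17.1, numpy 2.4.6, matplotlib 3.10.9 and pandas 2.3.3 in Python 3.11.15.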

Additional observations from a re-analysis of the deposited data

Results flagged for a closer look

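The loci described in detail, those over an opposed promoter window and those opposite an annotated lncRNA, 92 in all, were looked through. At 19 of them the 2 pairs of lines were called in opposite directions, and each pair had a library with 20 read pairs or more. Many of the 92 were chosen for a large difference within a pair, and the share of such opposite calls over all transcripts was not counted. The 19 are therefore a list to look at and not a result about these loci. Each condition had 1 library, so the difference was not tested, and listed zeros set most of the size. Values are read pairs of parental and resistant A549 and of parental and resistant HCC827, followed by the log2 ratio of A549/DDP minus that of HCC827/GR, after adding 0.1 FPKM.

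Higher in A549/DDP and lower in HCC827/GR were OLA1 MSTRG.54554.1 (22.8, 53.3, 87.8 and 0, difference 5.72), SNF8 MSTRG.41403.1 (0, 108, 90.8 and 0, difference 10.37), NOX1 MSTRG.103904.1 (0, 58.9, 112 and 23.0, difference 7.15), LINC01090 MSTRG.55127.1 (0, 45.8, 44.9 and 0, difference 8.21), RPL8 MSTRG.96678.1 (0, 48.2, 49.6 and 0, difference 9.49), PSMB10 MSTRG.37270.1 (0, 43.8, 21.9 and 0, difference 7.41) and COL10A1 MSTRG.84459.1 (0, 26.0, 23.9 and 0, difference 6.83). The same held for 6 loci opposite an annotated lncRNA, at RP11-285G1.9 MSTRG.10877.1 (0, 29.7, 28.8 and 0, difference 6.96), RP11-383C5.8 MSTRG.13797.1 (0, 29.3, 37.8 and 0, difference 9.42), KDM4A-AS1 MSTRG.2192.1 (0, 34.7, 96.0 and 8.27, difference 7.44), AC010976.2 MSTRG.53034.1 (1, 22.7, 63.7 and 0, difference 8.32), RP11-495P10.1 MSTRG.5498.1 (0, 26.7, 66.4 and 0, difference 8.45) and AC000123.4 MSTRG.90960.1 (0, 82.1, 192 and 2, difference 9.16). Lower in A549/DDP and higher in HCC827/GR were ST3GAL6 MSTRG.65966.1 (79.8, 35.2, 0 and 74.0, difference -6.61), BCAN MSTRG.6152.1 (70.1, 0, 0 and 30.1, difference -7.24), RP11-37B2.1 MSTRG.95065.1 (31.0, 0, 23.3 and 228, difference -7.57), OVOL2 MSTRG.57750.1 (35.3, 0, 0 and 207, difference -14.81), AC090154.1 MSTRG.94234.1 (42.5, 11.4, 0 and 136, difference -8.06) and LINC01090 MSTRG.55132.1 (38.1, 0, 21.2 and 156, difference -6.89). The A549 lines had counts in both libraries at OLA1, ST3GAL6, AC090154.1 and AC010976.2 only, and the HCC827 lines at NOX1, RP11-37B2.1, MSTRG.55132.1, KDM4A-AS1 and AC000123.4 only.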

How the results depend on the processing

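The 210 named loci became 445 with a minimum of 10 read pairs and 63 with a minimum of 50, and 212 at 300 bases per pair, 140 without HCC827/GR and 209 with no rounding tolerance, the last an alternative added after seeing the data. The 1281 transcripts above 0 in 2 libraries became 894 at 3 read pairs, 1246 at 0.1 FPKM and 1161 without HCC827/GR. In the A549 pair, 1081 higher and 801 lower calls became 114 and 92 with 20 read pairs in 1 library and 189 and 167 with values above 0 in both. In the HCC827 pair, 349 higher and 1640 lower became 107 and 34 with values above 0 in both, and the lower calls became 732 with 20 read pairs in 1 library. Higher calls were 17.5% of all calls in that pair, 31.9% with 20 read pairs and 75.9% above 0 in both. Pseudocounts of 1 and 0.01 FPKM, no filter and both rescalings left these counts within 1.5 times. The median length of 281 bases was 385 among transcripts with 20 read pairs in 1 library, and 1236 transcripts had a RefSeq gene on the opposite strand against 3124 with a file gene name. The share in the last 10% of the opposed gene was 39.6%, and 43.2% with 20 read pairs in 1 library, and the ratio of summed read pairs of HCC827/GR to HCC827 was 2.96, and 1.06 without MSTRG.3156.1, both chosen after seeing the data. For 92 loci in both pairs, 736 log2 ratios were recomputed under other pseudocounts and scalings, of which 688 kept their side of the 2-fold threshold, 45 fell short of it, 3 passed it and 0 changed direction. No paired analysis was possible because each condition had 1 library, so that the groups compared share fewer than 2 replicate numbers, and a fit over both drugs with the line as a block was not run. With 1 library per condition, intervals cover counting error only, and the partner genes are limited by the RefSeq genes with a known strand.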
